A study of Arabidopsis thaliana with 6 samples.

Results

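The genes described here are 10 genes of stem cuticular wax in *Arabidopsis thaliana*, chosen by their AGI locus identifiers for known roles in making or exporting wax, out of 33318 genes listed for each library. All 10 had enough reads to be tested. They are *KCS1* (AT1G01120), *CER6* (AT1G68530), *CER2* (AT4G24510) and *CER10* (AT3G55360) of fatty acid elongation, *CER1* (AT1G02205), *CER3* (AT5G57800) and *MAH1* (AT1G57750) of the alkane branch, *CER4* (AT4G33790) and *WSD1* (AT5G37300) of the alcohol branch, and the exporter gene *CER5* (AT1G51500). They were measured by RNA-seq in second internodes of plants with elongated inflorescence stems in the Col-0 background.

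Cuticular wax is made by the epidermis, which elongates fatty acids to very long chains in the endoplasmic reticulum and moves the products through the plasma membrane to the plant surface. There the wax limits water loss from the shoot. A decarbonylation or alkane-forming branch turns the long acyl chains into aldehydes, alkanes, secondary alcohols and ketones, which dominate the wax of the *Arabidopsis* stem, while a reduction branch gives primary alcohols and wax esters. Mutants in many of these genes were found by their glossy, bright green stems and are called *eceriferum* (*cer*).

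All plants carried *pPXY:GR-ARF5∆III/IV*, written PXY:GR-MPΔIII/IV in the labels. This transgene expresses a truncated form of the auxin response factor ARF5 (MONOPTEROS) that escapes AUX/IAA repression, fused to the glucocorticoid receptor, from the *PXY* promoter, which is active in stem cells of the cambium. The comparison asked which transcripts respond when this protein is released into the nucleus. The 3 Dex libraries came from plants dipped in 15 µM dexamethasone (Dex), a synthetic glucocorticoid that activates the fusion protein, and collected after 3 h, and the 3 mock libraries from plants of the same genotype dipped in an ethanol control solution and likewise collected after 3 h. Both solutions held a wetting agent. Plants that lacked the transgene and received Dex were not analysed here, so an effect of Dex itself and an effect of the fusion protein cannot be told apart. The wax genes act in the epidermis and the transgene is driven in the cambium, so the whole-internode RNA joins both tissues. Each replicate is described as 3 plants in the methods and as 3 pooled RNA samples in the deposited description. In such bulk samples, fewer cells of a type and less RNA per cell cannot be told apart.

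The libraries held 22871927 to 32099136 reads in genes. One of them, mock replicate 2, stood apart from the other mock libraries. The labels and methods do not say what set it apart, which was not tested and bears on each value given with this library. Across the genes tested, the log2 values of mock replicate 2 correlated with those of the 3 Dex libraries at r of 0.963 to 0.964 and with those of the 2 other mock libraries at 0.961 and 0.965, while r was 0.976 between mock replicates 1 and 3. On the first principal component, which held 49.4% of the variance, Dex libraries lay at -44.2, -36.5 and -30.1, and mock replicates 1, 2 and 3 at 50.4, 9.75 and 50.6. The wax genes are therefore compared with all 6 libraries and again without mock replicate 2. Mock replicate 2 was set apart with its values known.

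None of the 10 wax genes passed the test between 3 Dex and 3 mock libraries in either direction. The test was edgeR's quasi-likelihood test on counts over the whole gene with Benjamini-Hochberg adjustment over 19347 genes, and it called 6.69% of them at an adjusted p under 0.05, 4.63% as higher and 2.07% as lower with Dex. At an unadjusted p under 0.05, 1 of the 10, *CER1*, was lower and none was higher, where the same threshold called 10.2% of all genes tested as lower and 12.4% as higher (22.6% either way). DESeq2, limma-voom and edgeR's exact test also called 0 of the 10. Over all genes they called 1383, 876 and 1332 higher and 916, 321 and 851 lower. The fitted log2 fold changes of Dex over mock were nonetheless below 0 for all 10 genes, beside 9964 of the 19347 genes tested. The median of the 10 was -0.30, where the median of all genes tested was -0.01. Dex and mock libraries overlapped for all 10, whereas the groups did not overlap in 27.3% of all genes tested (15.2% with Dex higher and 12.1% with Dex lower).

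Without mock replicate 2, *CER1*, *CER4*, *WSD1* and *MAH1* passed the test as lower with Dex, and the other 6 did not. That made 4 of 10 lower, where 7.96% of 19587 genes tested were lower and 9.79% higher (17.8% either way). The median log2 fold change of the 10 was then -0.49, against 0.01 for all genes tested. These 4 genes act downstream of elongation, where the acyl chains are turned into the final wax compounds, as does *CER3*, which did not pass.

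**Figure D1:**
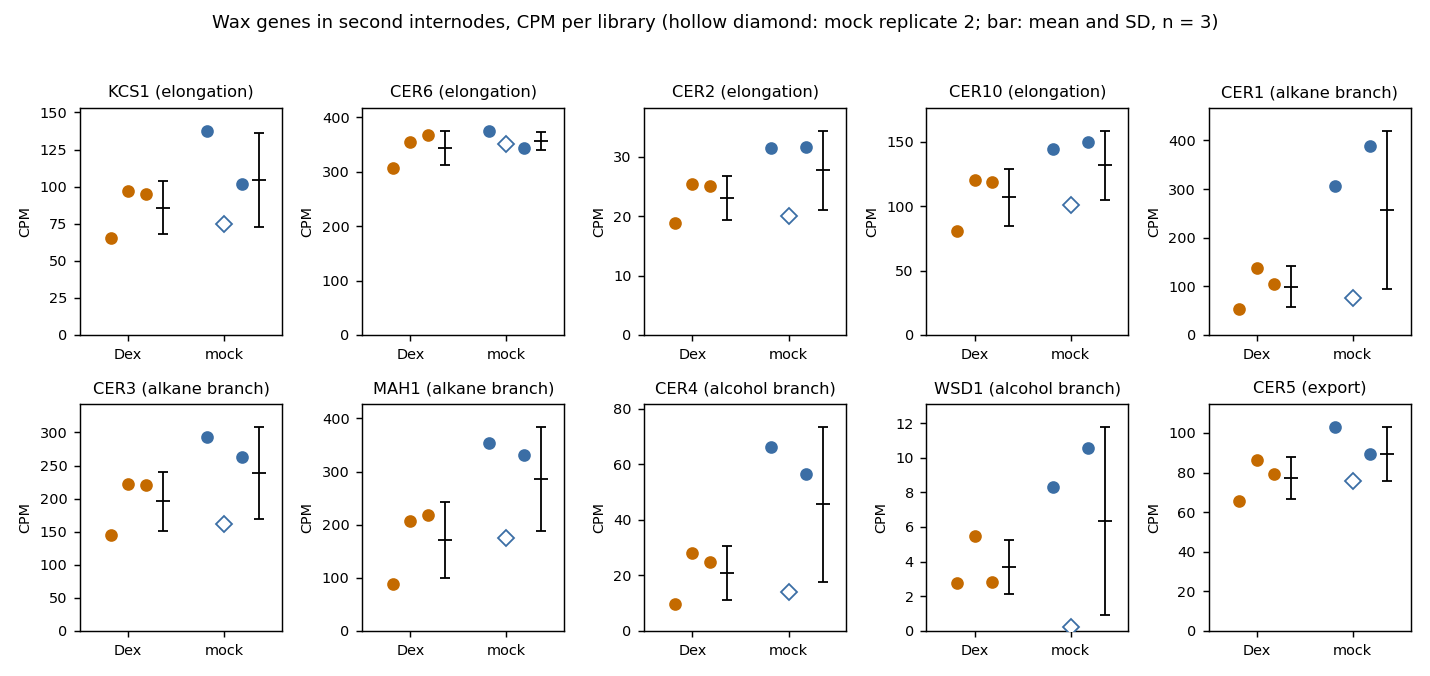
Normalised read counts (counts per library total, CPM, axis from 0) of the 10 wax genes in each library, with the 3 Dex libraries on the left and the 3 mock libraries on the right of each panel and bars for mean and SD (n = 3). In 9 of 10 panels mock replicates 1 and 3 lie above all Dex points while mock replicate 2 (hollow diamond) lies at or below the highest of them. *CER6* is the exception.

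Levels of different genes can be set side by side only per length, as RPKM, the authors' exon reads scaled by exon length and library total. On this scale the 10 genes spanned from among the most abundant transcripts of the internode to a low one. *CER6* came first by its mean over all libraries, at position 828 of 22373 genes with an RPKM value. It had 156 ± 10.7 RPKM in Dex libraries and 158 ± 5.26 RPKM in mock libraries (SD, n = 3 each). *MAH1* followed with 99.1 ± 40.0 RPKM in Dex libraries and 163 ± 53.3 RPKM in mock libraries. *MAH1* was above *CER6* in mock replicates 1 and 3 and below it in the other libraries. *CER10* and *CER3* had nearly the same mean over the 6 libraries, 87.2 and 86.2 RPKM, and did not differ beyond their spread. The mean of *CER1* was 73.1 RPKM, but its libraries ran from 23.1 to 160 RPKM and so overlapped those of *MAH1*, *CER10* and *CER3*. Lower down stood *KCS1* with a mean of 49.9, *CER5* with 35.1, *CER4* with 18.5, *CER2* with 16.1 and *WSD1* with 3.0 RPKM. *CER4* and *CER2*, neighbours in this order, overlapped across their libraries, whereas the highest *WSD1* library, at 6.24 RPKM, lay below the lowest *CER2* library, at 12.2 RPKM.

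The elongation genes had fitted log2 fold changes of -0.30 to -0.05. *CER6* encodes the 3-ketoacyl-CoA synthase that is the main condensing enzyme of stem wax elongation and lies on the reverse strand at chr1:25712414-25715024 (this and all positions below are of TAIR10.1, as annotated by RefSeq). It had 307, 355 and 368 CPM in Dex replicates 1, 2 and 3, against 375, 350 and 343 CPM in mock replicates 1, 2 and 3. Only Dex replicate 1 stood below the others, and mock replicate 2 lay inside the range of the mock group. The fold of Dex over mock was 0.964 (95% interval 0.806 to 1.15) with an adjusted p of 0.825 by edgeR, and the log2 fold change was -0.06 without mock replicate 2 (adjusted p = 0.773).

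*KCS1* encodes another condensing enzyme of very-long-chain fatty acid elongation (chr1:57164-59215, reverse strand). Its counts were 65.4, 97.3 and 94.9 CPM in Dex replicates 1 to 3, against 138, 74.6 and 102 CPM in mock replicates 1 to 3. *CER2* encodes a BAHD-type protein that is needed to carry elongation to the longest chains (chr4:12660687-12662656, forward strand), and had 18.8, 25.4 and 25 CPM in Dex libraries, against 31.4, 20.1 and 31.7 CPM in mock libraries. In both genes the mock group was split, with replicates 1 and 3 above all Dex libraries and replicate 2 above Dex replicate 1 alone. *CER10*, which encodes the enoyl-CoA reductase of the elongase complex (chr3:20520930-20523098, reverse strand), followed the same order with 81.0, 120 and 119 CPM in Dex libraries, against 145, 101 and 150 CPM in mock libraries. *CER2* overlaps AT4G24520 by 96 bases and *CER10* overlaps AT3G55350 by 27 bases, both on the opposite strand, and whether the counting used strand is not given in the sources used here.

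The folds of Dex over mock were 0.821 for *KCS1* (95% interval 0.576 to 1.17), 0.833 for *CER2* (0.613 to 1.13) and 0.811 for *CER10* (0.600 to 1.10), with edgeR adjusted p of 0.495, 0.466 and 0.392. Without mock replicate 2 their log2 fold changes were -0.48, -0.45 and -0.46 with adjusted p of 0.101, 0.0602 and 0.0794.

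The alkane branch held the gene with the largest difference among the 10. *CER1* encodes the protein that, together with CER3, forms very-long-chain alkanes, and lies at chr1:418416-422579 on the forward strand. It had 54.0, 138 and 105 CPM in Dex replicates 1, 2 and 3, against 307, 75.1 and 389 CPM in mock replicates 1, 2 and 3. Mock replicates 1 and 3 were above all Dex libraries by a wide margin, and mock replicate 2 stood between Dex replicates 1 and 3. The fold of Dex over mock was 0.386 (95% interval 0.166 to 0.894), a log2 fold change of -1.37 ± 0.534 (SE), with an unadjusted p of 0.0305 and an adjusted p of 0.168 by edgeR. Without mock replicate 2, *CER1* fell with a log2 fold change of -1.81 and an adjusted p of 0.00364.

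*MAH1* encodes the cytochrome P450 CYP96A15, a midchain alkane hydroxylase that turns alkanes into secondary alcohols and ketones (chr1:21383812-21385709, reverse strand). It had 88.2, 207 and 218 CPM in Dex replicates 1 to 3, against 354, 175 and 331 CPM in mock replicates 1 to 3. Here, too, mock replicates 1 and 3 were highest, and mock replicate 2 lay below Dex replicates 2 and 3. The fold was 0.596 (95% interval 0.342 to 1.04) with an adjusted p of 0.253 by edgeR. With mock replicate 2 left out, *MAH1* fell with a log2 fold change of -1.0 and an adjusted p of 0.0460, just under the threshold.

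*CER3*, the partner of *CER1* in alkane formation (chr5:23420184-23424117, forward strand), had 144, 222 and 221 CPM in Dex libraries, against 293, 161 and 264 CPM in mock libraries. As in *CER1*, mock replicates 1 and 3 were above all Dex libraries and mock replicate 2 above Dex replicate 1 only, but the span was narrower. Its fold was 0.818 (95% interval 0.562 to 1.19) with an adjusted p of 0.513, and its log2 fold change without mock replicate 2 was -0.51 (adjusted p = 0.0794). The level of *CER1* relative to *CER3*, as a ratio of RPKM within each library, was 0.387, 0.649 and 0.494 in Dex replicates 1 to 3, against 1.09, 0.485 and 1.54 in mock replicates 1 to 3. Thus *CER1* exceeded *CER3* in mock replicates 1 and 3 and was below it in the other 4 libraries. No test was run on this ratio.

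In the alcohol branch, *CER4* encodes the fatty acyl-CoA reductase that makes primary alcohols (chr4:16204096-16207956, reverse strand). It had 9.74, 28.2 and 24.6 CPM in Dex replicates 1, 2 and 3, against 66.3, 13.9 and 56.6 CPM in mock replicates 1, 2 and 3. Mock replicates 1 and 3 were again above all Dex libraries and mock replicate 2 above Dex replicate 1 only. The fold was 0.459 (95% interval 0.197 to 1.07) with an adjusted p of 0.257 by edgeR. Leaving out mock replicate 2, *CER4* fell with a log2 fold change of -1.55 and an adjusted p of 0.0108. The ratio of *CER4* to *CER6* in RPKM was 0.0404, 0.0995 and 0.0840 in Dex libraries, against 0.222, 0.0476 and 0.207 in mock libraries.

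*WSD1* encodes the wax ester synthase that joins these alcohols to acyl chains (chr5:14767426-14770396, forward strand), and was the rarest of the 10. It had 2.79, 5.46 and 2.80 CPM in Dex replicates 1 to 3, from 67, 149 and 89 reads, against 8.31, 0.234 and 10.6 CPM in mock replicates 1 to 3, from 184, 6 and 245 reads. This was the gene with the widest split of the mock group, and the only one of the 10 whose lowest library was mock replicate 2. With all 6 libraries the fold was 0.581 with a 95% interval of 0.150 to 2.24 (edgeR adjusted p = 0.634), and 2 alternatives turned its sign, limma-voom with a log2 fold change of 0.45 and limma on log2(RPKM + 0.1) with 0.19. When mock replicate 2 was left out, *WSD1* fell with a log2 fold change of -1.35 and an adjusted p of 0.0155.

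*CER5* (*ABCG12*) encodes an ABC transporter that exports wax through the plasma membrane (chr1:19097712-19101265, reverse strand). It had 65.7, 86.5 and 79.3 CPM in Dex replicates 1 to 3, against 103, 75.6 and 89.4 CPM in mock replicates 1 to 3. Mock replicate 3 was above Dex replicate 2, the highest Dex library, by a small margin, and mock replicate 2 was below it. The fold was 0.864 (95% interval 0.691 to 1.08) with an adjusted p of 0.419 by edgeR, and the log2 fold change without mock replicate 2 was -0.32 (adjusted p = 0.126).

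**Figure D2:**
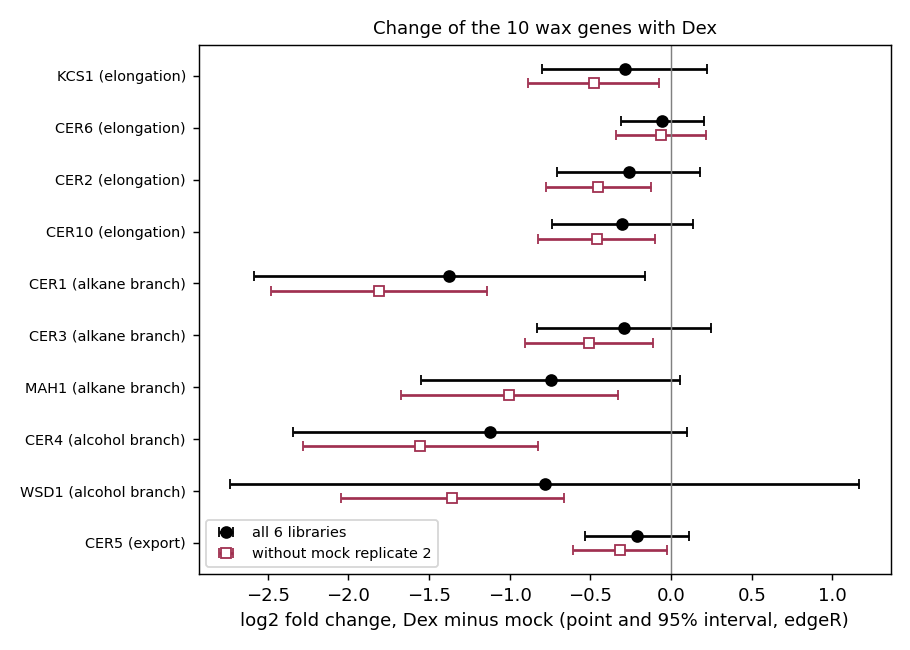
Log2 fold change of Dex over mock for each wax gene (edgeR, point and 95% interval), with all 6 libraries (filled circles) and without mock replicate 2 (open squares), grouped by role. With all 6 libraries the points run from -1.37 for *CER1* to -0.05 for *CER6* and only the interval of *CER1* excludes 0, while without mock replicate 2 only the interval of *CER6* includes 0. These intervals are not adjusted for the number of genes.

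The order of the libraries was nearly the same from gene to gene. Mock replicates 1 and 3 were both above all Dex libraries, with mock replicate 2 at or below the highest Dex library, in 9 of the 10 wax genes, *CER6* being the exception, and in 11.3% of all genes tested (23.5% where mock replicate 2 could lie anywhere). Mock replicate 2 was below the 2 other mock libraries in 9 of 10, again without *CER6*, and in 34.0% of all genes tested. The lowest of the 6 libraries was Dex replicate 1 in 9 of 10, *WSD1* being the exception, and in 20.6% of all genes tested. On the log2 scale, mock replicate 2 differed from the mean of mock replicates 1 and 3 by -4.92 in *WSD1*, -2.20 in *CER1*, -2.14 in *CER4* and -0.97 in *MAH1*, while 5% of all genes tested lay below -0.92. Leaving out a library that lies below the rest of its group raises the mean of that group, so the larger fold changes without mock replicate 2 follow from these values. The 10 genes share their libraries, so these counts are 1 pattern and not 10 independent ones.

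Because Dex replicate 1 was lowest in most of the genes, the fit was also made without mock replicate 2 and without Dex replicate 1, an alternative chosen after seeing the data. *CER1* (log2 fold change -1.53, adjusted p = 0.000847), *CER4* (-1.23, 0.000817), *MAH1* (-0.70, 0.00403) and *WSD1* (-1.21, 0.0395) were then lower with Dex. These were the same 4 genes, where 6.59% of 19439 genes tested were lower and 7.58% higher. Both libraries were left out because they were low in these genes, which narrows the spread within groups. The adjusted p of this fit are therefore no separate support. *CER6* had a log2 fold change of 0.00 in this fit.

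The 250 bases before the annotated start of *CER1*, *MAH1*, *CER4* and *WSD1*, the 4 genes that were lower once mock replicate 2 was left out, are shown with those of *CER6*, whose level differed least, because ARF proteins bind short auxin response elements in such regions. They were read from TAIR10.1 on the strand of each gene, 5′ to 3′, with the auxin response element TGTCGG in capitals. Other forms of the element are not marked. The windows are chr1:418166-418415 (*CER1*, forward strand), chr1:21385710-21385959 (*MAH1*, reverse strand), chr4:16207957-16208206 (*CER4*, reverse strand), chr5:14767176-14767425 (*WSD1*, forward strand) and chr1:25715025-25715274 (*CER6*, reverse strand), and they hold no exon of another gene.
CER1: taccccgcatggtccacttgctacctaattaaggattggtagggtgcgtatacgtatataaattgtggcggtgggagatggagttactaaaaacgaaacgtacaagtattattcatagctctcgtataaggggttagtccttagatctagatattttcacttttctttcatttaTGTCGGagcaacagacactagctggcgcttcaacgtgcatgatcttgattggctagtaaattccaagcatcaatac
MAH1: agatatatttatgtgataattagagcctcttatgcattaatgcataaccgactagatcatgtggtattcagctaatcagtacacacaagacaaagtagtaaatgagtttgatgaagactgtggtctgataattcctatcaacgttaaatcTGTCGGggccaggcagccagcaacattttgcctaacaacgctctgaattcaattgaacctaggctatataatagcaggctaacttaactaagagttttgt
CER4: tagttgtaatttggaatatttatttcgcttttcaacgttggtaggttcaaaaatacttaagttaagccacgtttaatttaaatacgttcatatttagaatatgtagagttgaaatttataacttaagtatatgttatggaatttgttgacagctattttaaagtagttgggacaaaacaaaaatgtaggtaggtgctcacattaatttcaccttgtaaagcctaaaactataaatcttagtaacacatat
WSD1: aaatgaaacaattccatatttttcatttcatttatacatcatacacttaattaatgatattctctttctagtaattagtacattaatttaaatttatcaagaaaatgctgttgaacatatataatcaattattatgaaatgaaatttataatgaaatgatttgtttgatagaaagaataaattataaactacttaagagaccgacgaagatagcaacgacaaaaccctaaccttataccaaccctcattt
CER6: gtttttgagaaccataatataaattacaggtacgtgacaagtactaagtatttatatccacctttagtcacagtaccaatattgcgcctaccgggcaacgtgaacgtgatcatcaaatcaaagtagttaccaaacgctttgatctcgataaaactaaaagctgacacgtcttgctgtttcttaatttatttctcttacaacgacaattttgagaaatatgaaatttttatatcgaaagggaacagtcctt

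TGTCGG, searched on both strands, was found in 3 of the 10 wax gene windows, in *CER1*, *MAH1* and *CER5*, beginning 76, 100 and 124 bases before the start, and in 4.16% of 27443 windows of protein-coding genes. The letters TGTCTC, the first described auxin response element, were in 0 of 10 and in 10.95% of all windows. CAGACA, the site in the promoter of the cambium gene *WOX4* where the paper reported ARF5 binding in vitro, was not searched. Its letters stand unmarked in the *CER1* window above and in the *CER3* window, and their share over all windows was not counted. The L1 box of epidermal genes (TAAATGCA or TAAATGTA) was in 0 of 10 and in 4.49% of all windows, and GCCGCC, a box bound by AP2/ERF factors, in 0 of 10 and 1.87%. A core bound by MYB factors (TAACCA or AAACCA) was in 2 of 10, *KCS1* and *CER2*, and in 39.06% of all windows. *CER4* and *WSD1*, which were lower together with *CER1* and *MAH1*, held none of the letters searched. Such matches are descriptions of these letters only, and whether any factor binds there was not measured.

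The rest of the wax pathway held no gene that passed the test. Of 21 further wax genes (elongase subunits, acyl-CoA synthetases and carriers, an ABC transporter and lipid transfer proteins), 19 were tested, and 0 were called by edgeR or DESeq2. Over all genes, edgeR called 6.69% of those tested, and DESeq2 called 1383 higher and 916 lower. At an unadjusted p under 0.05, 0 were higher and 1 lower, beside 12.4% and 10.2% of all genes tested. The median log2 fold change of the 19 was -0.16 and the lowest was -1.18. Of the 19, 16 were below 0, beside 9964 of 19347 genes tested. In 4 of 19 the Dex libraries lay below all mock libraries, beside 12.1% of all genes tested. The 2 most abundant by CPM were *LACS4*, a long-chain acyl-CoA synthetase gene, with 234 ± 12.3 CPM in Dex libraries and 251 ± 1.40 CPM in mock libraries (adjusted p = 0.561), and *ACC1*, which encodes the cytosolic acetyl-CoA carboxylase that supplies malonyl-CoA, with 120 ± 9.07 CPM in Dex libraries and 138 ± 4.71 CPM in mock libraries (adjusted p = 0.256). In the fit without mock replicate 2, 1 of the 19 was lower, beside 7.96% of all genes tested. It was the elongase gene *KCS2* (log2 fold change -0.56, adjusted p = 0.0287), named here after its values were seen.

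Of 18 genes known to regulate wax or cuticle formation, 15 were tested and 1 was called, a share of 6.67% beside 6.69% of all genes tested. AT2G33510 rose to 13.3, 15.0 and 14.3 CPM in Dex libraries, against 10.2, 8.57 and 9.65 CPM in mock libraries (log2 fold change 0.59, adjusted p = 0.0360), and its groups did not overlap. The call was lost without any one of the 3 Dex libraries, mock replicate 1 or mock replicate 3 (adjusted p of 0.0821 to 0.143). The median of the 15 was 0.01. *CER9*, a ubiquitin ligase gene whose loss alters wax and cutin, had 118 ± 6.91 CPM in Dex libraries and 134 ± 9.64 CPM in mock libraries (adjusted p = 0.323), and *SPL9*, a transcription factor gene known to promote *CER1* expression, had 29.9 ± 6.81 CPM in Dex libraries and 34.0 ± 5.84 CPM in mock libraries (adjusted p = 0.613). *DEWAX*, which encodes an AP2/ERF repressor of wax genes and is named here after its values were seen, had 18.6, 16.6 and 17.3 CPM in Dex libraries, against 21.9, 47.9 and 11.6 CPM in mock libraries (adjusted p = 0.396). Its highest library was mock replicate 2, the mock library with the lowest level of 9 of the 10 wax genes. Its lowest was mock replicate 3. *MYB94*, another transcription factor gene of this list, had 0.768, 3.97 and 1.68 CPM in mock replicates 1, 2 and 3. Among mock libraries *MYB94* was highest in mock replicate 2. That both genes peaked there among mock libraries does not mean that *MYB94* acts on wax genes in the same direction as *DEWAX*. *MYB94* had 2.65 ± 1.31 CPM in Dex libraries (edgeR adjusted p = 0.806), and was named after its values were seen. Whether *DEWAX* or *MYB94* bears on the wax genes in mock replicate 2 was not tested. *MYB96*, an activator of wax genes, had 2.64 ± 0.337 CPM in Dex libraries and 2.63 ± 0.108 CPM in mock libraries (adjusted p = 0.996), and was likewise named after its values were seen.

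Genes of cutin, the polyester that the wax is embedded in, included 1 that rose and 1 that fell. Of 16 listed, 14 were tested, with a median log2 fold change of -0.19, where 4.63% of all genes tested rose and 2.07% fell. *DCR*, an acyltransferase gene needed for cutin, rose to 4.79, 5.68 and 5.98 CPM in Dex libraries, against 2.57, 2.02 and 2.72 CPM in mock libraries (log2 fold change 1.17, adjusted p = 0.0221). *LTL1* (AT3G04290), a GDSL-type lipase gene, fell to 1.12, 1.36 and 1.10 CPM in Dex libraries, against 3.97, 4.44 and 2.03 CPM in mock libraries (log2 fold change -1.54, adjusted p = 0.0410). In neither gene did the groups overlap, and mock replicate 2 lay on the side of the other mock libraries. Both calls were lost without any one of the 3 Dex libraries or mock replicate 1, with adjusted p of 0.0566 to 0.105 for *DCR* and 0.111 to 0.140 for *LTL1*. In the fit without mock replicate 2, 1 of the 14 was higher (*DCR*) and 5 were lower (*LTL1* and, named after their values were seen, *CYP86A4*, *GPAT8*, *LACS2* and *ABCG32*), where 9.79% of all genes tested were higher and 7.96% lower. Without mock replicate 2 and Dex replicate 1, 1 cutin gene was higher and 1 lower, beside 7.58% and 6.59% of all genes tested. *LTL1* was then not called (edgeR adjusted p = 0.0951). *CYP86A4* had 119 reads in mock replicate 3, against 25 in mock replicate 1 and 11 to 28 in Dex libraries. Of 10 suberin genes only 2 were tested, and the rest were at or near 0. *ABCG20* had 11.4 ± 0.760 CPM in Dex libraries and 13.4 ± 1.58 CPM in mock libraries (adjusted p = 0.349), and *ABCG2* had 7.95 CPM in Dex replicate 1 and 0.440 to 2.03 CPM in the other 5 libraries (adjusted p = 0.537), but only 1.88% of its reads were unique, so its level is uncertain.

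**Figure D3:**
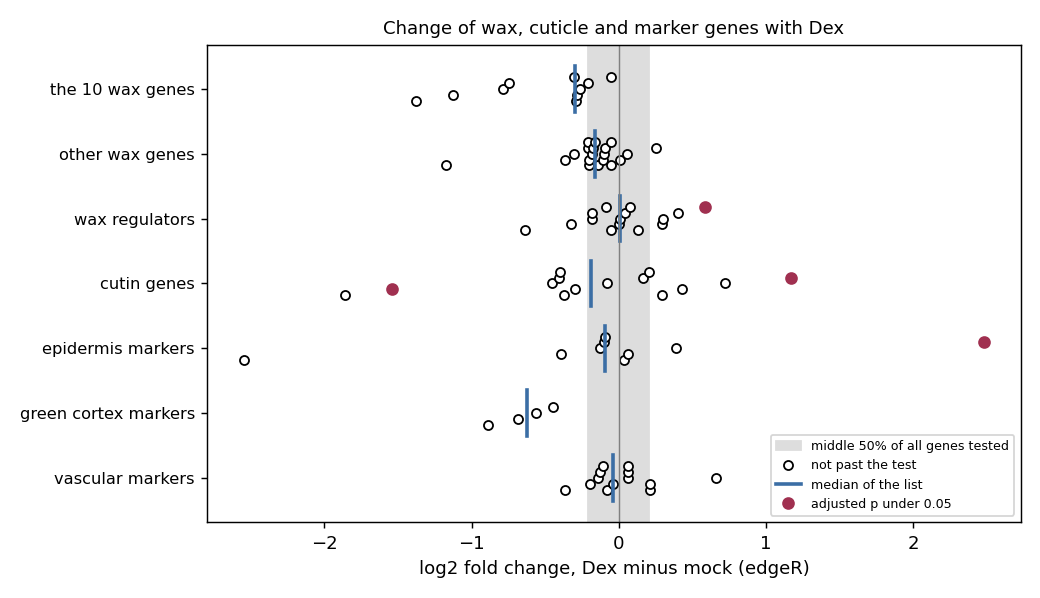
Log2 fold change of Dex over mock (edgeR, all 6 libraries) for each tested gene of 7 of the lists (suberin genes and guard cell and trichome markers are not shown), with blue lines for list medians, filled points for genes with an adjusted p under 0.05 and a grey band for the middle 50% of all genes tested (-0.21 to 0.21). The medians of the 10 wax genes (-0.30) and of the green cortex markers (-0.62) lie left of the band, and the other 5 medians shown lie within it.

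The epidermis, which makes the wax, was followed by its own markers. *ATML1*, *PDF2*, *ACR4* and *HDG2*, regulators of epidermal identity that were grouped after their values were seen, summed to 33.2, 37.3 and 36.9 CPM in Dex replicates 1 to 3, against 39.1, 38.4 and 36.1 CPM in mock replicates 1 to 3, so that mock replicate 2 lay between the 2 other mock libraries and Dex replicate 1 was lowest. *PDF2*, the largest part of this sum in every library, had 18 ± 0.453 CPM in Dex libraries and 17.2 ± 0.590 CPM in mock libraries (adjusted p = 0.779). The 4 genes did not move alike. *HDG2* had 4.46, 6.12 and 6.23 CPM in Dex libraries, against 7.99, 7.48 and 6.59 CPM in mock libraries (edgeR adjusted p = 0.289). Its Dex libraries thus lay below all mock libraries, as in 12.1% of all genes tested. Of the 10 epidermis markers 1, *PDF1*, was listed at 0 in all 6 libraries. The whole list summed to 41.7, 44.2 and 45.2 CPM in Dex replicates 1 to 3, against 61.5, 44.1 and 67.8 CPM in mock replicates 1 to 3. In this sum mock replicate 2 lay among the Dex libraries, as it did in most of the wax genes. The sum holds *LTP1*, described below, whose mock libraries split alike.

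*LTP1* and *LTP2* on that list encode lipid transfer proteins, which are secreted and bind lipids. *LTP1* had 3.21, 2.93 and 2.55 CPM in Dex libraries, against 19.6, 2.26 and 28.8 CPM in mock libraries, with a log2 fold change of -2.54 that did not pass (adjusted p = 0.0684) and one of -3.07 without mock replicate 2 that did (adjusted p = 2.7e-05). Its mock libraries split as those of *CER1* and *CER4* did. *LTP2* rose to 2.08, 1.91 and 2.48 CPM in Dex libraries, against 0.271, 0.156 and 0.733 CPM in mock libraries (log2 fold change 2.48, adjusted p = 0.0317). All reads of *LTP1* and *LTP2* were unique (100% each). The call on *LTP2* was lost without any one of the 3 Dex libraries or mock replicate 1 (adjusted p of 0.0976 to 0.127).

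Markers of other cell types differed from list to list. Of 7 guard cell and trichome markers, *KAT1*, a guard cell potassium channel gene, rose to 53.6, 41.7 and 40.9 CPM in Dex libraries, against 28.4, 31.7 and 27.9 CPM in mock libraries (log2 fold change 0.63, adjusted p = 0.0248), while *FAMA* had 10.5 ± 1.95 CPM in Dex libraries and 10.6 ± 1.43 CPM in mock libraries (adjusted p = 0.972). The call on *KAT1* was lost without any one library other than mock replicate 2 (adjusted p of 0.0563 to 0.103). Only 4 of the 7 were tested and 1 was called by edgeR, beside 6.69% of all genes tested. The list summed to 63.2 to 73.0 CPM in Dex libraries and 49.4 to 53.7 CPM in mock libraries, with *SPCH* and *GL1* at 0 in all 6. *KAT1* took the larger part of this sum in every library, so the sum follows that gene and not the list. Of the 13 vascular markers, 0 were called by edgeR or DESeq2. Over all genes, edgeR called 6.69% of those tested, and DESeq2 called 1383 higher and 916 lower. At an unadjusted p under 0.05, 1 of the 13 was lower, beside 10.2% of all genes tested. It was the cambium gene *WOX4*, named after its values were seen. It had 30.6, 30.7 and 29.8 CPM in Dex libraries, against 32.0, 38.5 and 46.8 CPM in mock libraries (edgeR adjusted p = 0.161). The 13 vascular markers summed to 4047 to 5045 CPM in Dex libraries and 4618 to 4996 CPM in mock libraries, with a median log2 fold change of -0.04. *CESA4*, *CESA7* and *CESA8* (the last named after its values were seen) took the larger part of this sum in every library. The sum thus follows these genes and not the list. *CESA4* and *CESA7*, cellulose synthases of the secondary cell wall, had adjusted p of 0.845 and 0.646.

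The sum of the 4 green cortex markers split the libraries as the sum of the wax genes did. They summed to 6477, 8951 and 8837 CPM in Dex replicates 1 to 3, against 15043, 8262 and 13713 CPM in mock replicates 1 to 3, and the 10 wax genes to 837, 1285 and 1257 CPM in Dex replicates 1 to 3, against 1821, 1046 and 1767 CPM in mock replicates 1 to 3. In both sums mock replicates 1 and 3 were above all Dex libraries, mock replicate 2 was below Dex replicates 2 and 3, and Dex replicate 1 was lowest. Among single markers *LHCB1.3* differed from this, since its mock replicate 2, with 3663 CPM, lay above all Dex libraries (2620, 3636 and 3422 CPM). It belongs to a multigene family, and 83.2% of its reads were unique. *RBCS1A*, the small subunit of Rubisco, had 3936 ± 721 CPM in Dex libraries and 5810 ± 1868 CPM in mock libraries (adjusted p = 0.248), and *LHCB1.3*, a light-harvesting protein gene, had 3226 ± 536 CPM in Dex libraries and 5180 ± 1379 CPM in mock libraries (adjusted p = 0.117). By edgeR 0 of these 4 green cortex markers passed with all 6 libraries, beside 6.69% of all genes tested. At an unadjusted p under 0.05, 2 of them were lower, beside 10.2% of all genes tested. DESeq2 called 2 of them lower, and 916 genes lower over all genes. Without mock replicate 2, 4 of 4 were lower, beside 7.96% of all genes tested. The part of the green tissue in the result for the wax genes was not tested.

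**Figure D4:**
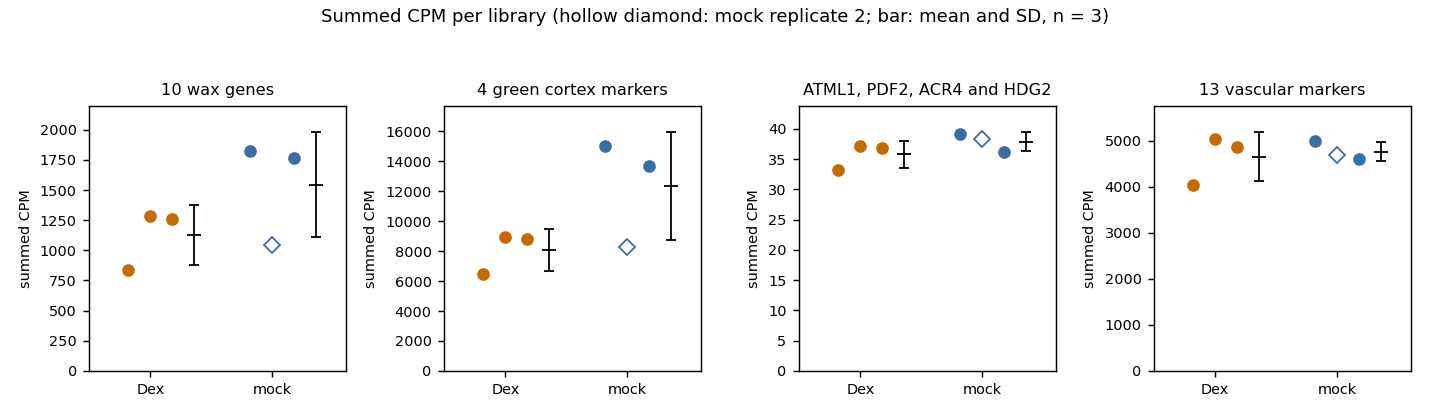
Summed CPM (axis from 0) in each library of the 10 wax genes, the 4 green cortex markers, the epidermal identity genes *ATML1*, *PDF2*, *ACR4* and *HDG2*, and the 13 vascular markers, with Dex libraries left, mock libraries right and bars for mean and SD (n = 3). In the first panels mock replicate 2 (hollow diamond) lies among the Dex libraries, at 1046 CPM for the wax genes and 8262 CPM for the cortex markers. For the epidermal identity genes, which were grouped after their values were seen, it lies with the other mock libraries at 38.4 CPM. In the sum of all 10 epidermis markers (not shown) mock replicate 2, at 44.1 CPM, lies among the Dex libraries. *PDF2* is the largest part of the epidermal identity sum, and *CESA4*, *CESA7* and *CESA8* take the larger part of the vascular sum.

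The genes most like the leading wax gene of each role were found as the 3 with the smallest root mean square difference of log2 CPM profiles over the 6 libraries, each centred on its own mean. For *CER6*, whose own profile varied by 0.0921, they were *CUE1* (0.0212), *ADS2* (0.0236) and *RABA2D* (0.0269). For *MAH1*, whose profile varied by 0.663, they were *RPA* (0.156), AT1G47370 (0.163) and AT5G64870 (0.191). For *CER4*, with 0.990, they were *IPT7* (0.153), *CA1* (0.202) and *GER1* (0.205). *CA1*, which encodes a carbonic anhydrase of green tissue, averaged 407 CPM in Dex libraries and 832 CPM in mock libraries (adjusted p = 0.252). For *CER5*, with 0.203, they were *GEM* (0.0457), AT4G26980 (0.0476) and *EXO70A1* (0.0481). Some of the genes named were rare. *IPT7* averaged 0.381 CPM in Dex libraries and 0.774 CPM in mock libraries, and AT5G64870 averaged 0.618 and 1.19 CPM. The genes named are the closest of 19347 profiles over the same 6 libraries and carry no test.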

How the data were processed

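RNA-seq libraries of second internodes, 3 Dex and 3 mock, were analysed, with groups taken from the sample labels. Libraries were made by the dUTP method, and alignment to TAIR10 was done by the authors in CLC Genomics Workbench. Per gene, the deposited tables hold counts of all gene reads, of unique gene reads and of exon reads. They also hold the authors' RPKM, which scales exon reads by exon length and library total. Of the reads of the 10 wax genes, 96.2% to 100% lay on exons and 98.6% to 100% were unique. Entries without a gene name (0.0803% to 0.0998% of reads) were left out. Libraries of *p35S:Myc-GR-bdl* plants were left aside.

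Gene counts were tested by quasi-likelihood in edgeR 4.0.16 (R 4.3.3) with TMM factors of 0.969 to 1.04 and filterByExpr (minimum count 10, minimum total 15). P-values were adjusted by Benjamini-Hochberg over 19347 genes with a threshold of 0.05, without a block. CPM are TMM-normalised counts scaled to library size. Values are given as mean ± SD over 3 libraries. Test scripts were tested on simulated data. The alternatives were RLE factors, library totals, no filter, DESeq2 1.42.0, limma-voom (limma 3.58.1), edgeR's exact test, unadjusted p, unique or exon reads, limma on log2(RPKM + 1) or log2(RPKM + 0.1), a replicate block and leaving out each library. Replicates differed by more than sampling noise (chi-square per degree of freedom of 14.2 to 56.1), so none was counted as a repeat of another. The labels do not say whether libraries came from separate plantings, and p-values measure only the spread between these libraries.

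Gene names, positions and promoter sequences came from RefSeq for TAIR10.1, where 32828 of the 33318 identifiers were found. The annotation release behind the deposited counts is not given in the sources used here, so the positions describe the reference genes and not the counted intervals. The members and the gene lists were chosen with earlier results of these data known. Besides the 10 wax genes, the text names from every other list up to 6 genes past the threshold with the smallest adjusted p and, where fewer than 2 passed, the 2 with the highest mean CPM, and the 3 genes nearest in profile to the most abundant member of each role. Genes outside this rule are marked where named, except markers named for being at 0.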

Additional observations from a re-analysis of the deposited data

How the results depend on the processing

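No wax gene was higher with Dex under any of the 20 alternatives run. The number lower was 0 in 17 of them, 1 at an unadjusted p under 0.05, and 4 without mock replicate 2, so that the range over the 6 fits that each left out 1 library was 0 to 4. It was also 4 without mock replicate 2 and Dex replicate 1, a setting chosen after seeing the data. Over all genes tested, leaving out 1 library gave 337 to 1918 genes higher and 70 to 1559 lower, against 895 and 400 with all 6, and both counts were highest without mock replicate 2. DESeq2 gave 1383 and 916.

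The sign of 2 wax genes turned in some settings. *CER6* had log2 fold changes of -0.11 to 0.025 over the fits that left out 1 library, above 0 without Dex replicate 1, and 0.00079 without mock replicate 2 and Dex replicate 1. *WSD1* had 0.45 by limma-voom and 0.19 by limma on log2(RPKM + 0.1). The other 8 kept a log2 fold change below 0 in all 20 alternatives. Among the other named genes, *ABCG2* turned to -0.10 by limma-voom, -0.0099 with the replicate block and -1.40 without mock replicate 2 and Dex replicate 1, and ranged from -1.33 (Dex replicate 1 left out) to 1.64 over the fits that left out 1 library. *FAMA* turned to 0.017 with library totals alone and ranged from -0.12 to 0.13, and *CESA4* from -0.0086 to 0.20. The cause was not tested.

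With the replicate number as a block, 0 of the 10 wax genes were higher and 0 lower, and 613 genes were higher and 261 lower over all genes. The deviations of same-numbered Dex and mock libraries from their group means correlated at -0.10, 0.00017 and 0.21. Those of differently numbered libraries correlated at -0.24 to 0.22. With 3 libraries per group these values cannot decide whether same-numbered libraries were paired, and the labels do not say. Under the block the calls on AT2G33510 (adjusted p = 0.0843), *DCR* (0.0521) and *LTL1* (0.0687) were lost, and those on *LTP2* and *KAT1* were not. The call on *LTL1* was also lost by limma-voom (0.0718) and the limma fits on RPKM (0.0563 to 0.0828), and that on *KAT1* by limma on log2(RPKM + 1) without the filter (0.0702). In mock replicate 2, *WSD1* rests on 6 reads and is limited by counting error.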
